A study of Mus musculus with 6 samples.

Results

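Slc22 genes encode carriers that move small organic ions across the plasma membrane. In the liver they take up cations, carnitine and anions from the blood, and they also handle many drugs and metabolites. Slc22a5 encodes the sodium-dependent carnitine carrier OCTN2, whose loss in mice and humans causes systemic carnitine deficiency. Slc22a7 encodes the organic anion carrier OAT2 of hepatocytes. Slc22a23 encodes an orphan carrier of the family, and Slc22a26, Slc22a27, Slc22a28 and Slc22a30 belong to a rodent expansion of organic anion carrier genes.

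The 7 genes were taken by their symbols out of 54532 genes measured in mouse liver. RNA was sequenced from whole livers of 6 male C57BL/6J adults aged 8 weeks. The fathers of 3 mice had received saline (paternal saline) and the fathers of the other 3 had received nicotine (paternal nicotine). No treatment, transgene or mutation of the offspring themselves is given, nor how many fathers or litters they came from. The p-values weigh the group difference against the spread among these 6 livers within their groups. If livers of a group shared a father or litter, they were not independent and the p-values could be too small. The comparison asked which transcripts of these carriers differed between offspring of the 2 groups. The unit is RPKM, reads scaled to gene length and to the reads of the library. In whole liver, fewer cells of a type and less RNA per cell cannot be told apart.

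The 4 genes of the rodent expansion lie in 1 cluster on chromosome 19 of GRCm38, all on the minus strand. In GENCODE M21 the order is Slc22a26 (7781041 to 7802667), Slc22a27 (7864388 to 7966027), Slc22a28 (8062209 to 8131982), Slc22a29 (8160165 to 8218900) and Slc22a30 (8335371 to 8405111). Slc22a29 is the only other protein-coding gene between them. Slc22a5 lies on chromosome 11 (53864542 to 53891660), next to its family relatives Slc22a21 and Slc22a4. Slc22a7 lies on chromosome 17 (46432183 to 46438457) and Slc22a23 on chromosome 13 (34179158 to 34345182). No exon of the 7 genes shares a base with an exon of another annotated gene.

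The coding sequences of Slc22a28 and Slc22a30 were identical at 1636 of 1656 aligned bases, 98.8%. Slc22a27 and Slc22a29 were identical at 97.3% and Slc22a5 and Slc22a21 at 89.4%, while Slc22a7 and Slc22a28 shared 52.7%. Of the 50-base windows of the Slc22a28 transcript, 53.9% occur unchanged in transcripts of other genes, nearly all of them in Slc22a30. The share was 51.8% for Slc22a30, 30.5% for Slc22a27, 27.2% for Slc22a5 and 9.50% for Slc22a26. For Slc22a7 and Slc22a23 it was 0.0%. The division of reads within the pairs Slc22a28 with Slc22a30, Slc22a27 with Slc22a29 and Slc22a5 with Slc22a21 is therefore uncertain. The summed reads of each pair are given beside the single values. A read moved between the genes of a pair leaves the sum unchanged, but a shared read that was dropped or counted for both does not.

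Promoter windows of 6 of the 7 genes, from 250 bases before to 50 after the start site, were matched by symbol in RefSeq (GRCm38.p6). No window was found for Slc22a7, so the promoter results do not cover it. The pair Slc22a28 and Slc22a30 is shown because these promoters are almost the same while the deposited RPKM of the genes differ widely. How far the true levels differ is not known, since the division of reads is uncertain and RPKM depend on the gene length used (2004 and 6741 bases). Reads of Slc22a28 and Slc22a30 were 1836 and 921 in paternal saline replicate 2, and 1039 and 46 in paternal nicotine replicate 1. Over the aligned part 288 of 294 bases were identical, and capitals mark the bases that differ. The windows are chr19:8131933-8132232 and chr19:8405056-8405355, both on the minus strand and written 5′ to 3′.
Slc22a28: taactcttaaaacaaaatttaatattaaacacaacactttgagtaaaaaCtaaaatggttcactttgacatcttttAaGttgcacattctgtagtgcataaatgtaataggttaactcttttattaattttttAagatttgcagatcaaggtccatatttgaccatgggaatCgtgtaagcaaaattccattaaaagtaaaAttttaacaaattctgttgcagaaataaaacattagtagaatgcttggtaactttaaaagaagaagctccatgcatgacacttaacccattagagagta
Slc22a30: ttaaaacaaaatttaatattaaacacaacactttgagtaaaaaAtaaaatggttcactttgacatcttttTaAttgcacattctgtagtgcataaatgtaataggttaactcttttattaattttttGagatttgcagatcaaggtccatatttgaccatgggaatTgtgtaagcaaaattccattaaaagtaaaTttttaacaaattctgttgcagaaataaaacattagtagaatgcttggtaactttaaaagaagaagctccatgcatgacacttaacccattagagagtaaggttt
With the Slc22a28 base first and positions counted from 1 at the 5′ end of its window, the differences are C50A, A77T, G79A, A134G, C173T and A202T. The Slc22a29 promoter was less alike, with 74.6% of aligned bases identical to that of Slc22a28.

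The cluster promoters of Slc22a28 and Slc22a30 were poor in G and C, at 28.3% and 27.7%, and only 0.5% and 0.4% of 32851 mouse promoter windows had a lower share. The promoter of Slc22a5 was of the opposite kind, with 72.7% G and C and 34 CG dinucleotides against a median of 7. It is shown for this contrast, with each CG in capitals (chr11:53891654-53891953, minus strand).
Slc22a5: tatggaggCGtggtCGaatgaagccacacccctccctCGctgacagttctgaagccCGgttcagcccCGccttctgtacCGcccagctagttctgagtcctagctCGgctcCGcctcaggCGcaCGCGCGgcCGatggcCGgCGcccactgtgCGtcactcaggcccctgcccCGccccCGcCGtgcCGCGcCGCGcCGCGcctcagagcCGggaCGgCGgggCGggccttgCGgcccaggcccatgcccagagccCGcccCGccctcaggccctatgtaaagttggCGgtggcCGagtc
The promoter of Slc22a23 was like it, with 77.3% G and C and 38 CG dinucleotides, and that of Slc22a28 held 1. Slc22a26 and Slc22a27 had 35.7% and 47.0% G and C. Motif letters were searched on both strands. The C/EBP letters TTGCNNAA were found once each in Slc22a28 (position 218), Slc22a30 (position 212) and Slc22a29 (position 236), and in 10.8% of all windows. The STAT5 letters TTCNNNGAA were found in Slc22a26 and in 8.30% of all windows. The nuclear receptor letters AGGTCA was found in Slc22a27 and in 16.3% of all windows. A DR1 element (AGGTCA repeated with 1 base between, so that it contains the letters above), CAAAGTCCA (HNF4A) and TATAAA were in none of the 6 windows. They were also absent from that of Slc22a29, and Slc22a7 was not searched.

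In livers of the paternal nicotine group, the anion carrier genes Slc22a7 and Slc22a28 fell to 38.0% and 48.3% of the paternal saline mean. The carnitine carrier gene Slc22a5 and the orphan carrier gene Slc22a23 had higher means in paternal nicotine, but both varied several-fold within each group and did not pass the test. Slc22a30, Slc22a26 and Slc22a27 had means under 1 RPKM over the 6 libraries, the minimum for the test, and lower means in paternal nicotine. Of the 4 genes tested, 2 were lower and 0 were higher in limma with Benjamini-Hochberg adjustment at 0.05. At an unadjusted p under 0.05 the counts were also 2 and 0, as they were in voom on the reads. Of all 8773 genes tested, 5.39% were lower and 3.89% higher in limma at the adjusted threshold, 9.28% in all. Voom called 754 genes in either direction, and this count was not split into lower and higher. The share of all genes with an unadjusted p under 0.05 was not counted. The unadjusted counts and the voom counts by direction, here and below, therefore have no background share beside them. Whether they stand out from all genes was not tested.

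**Figure D1:**
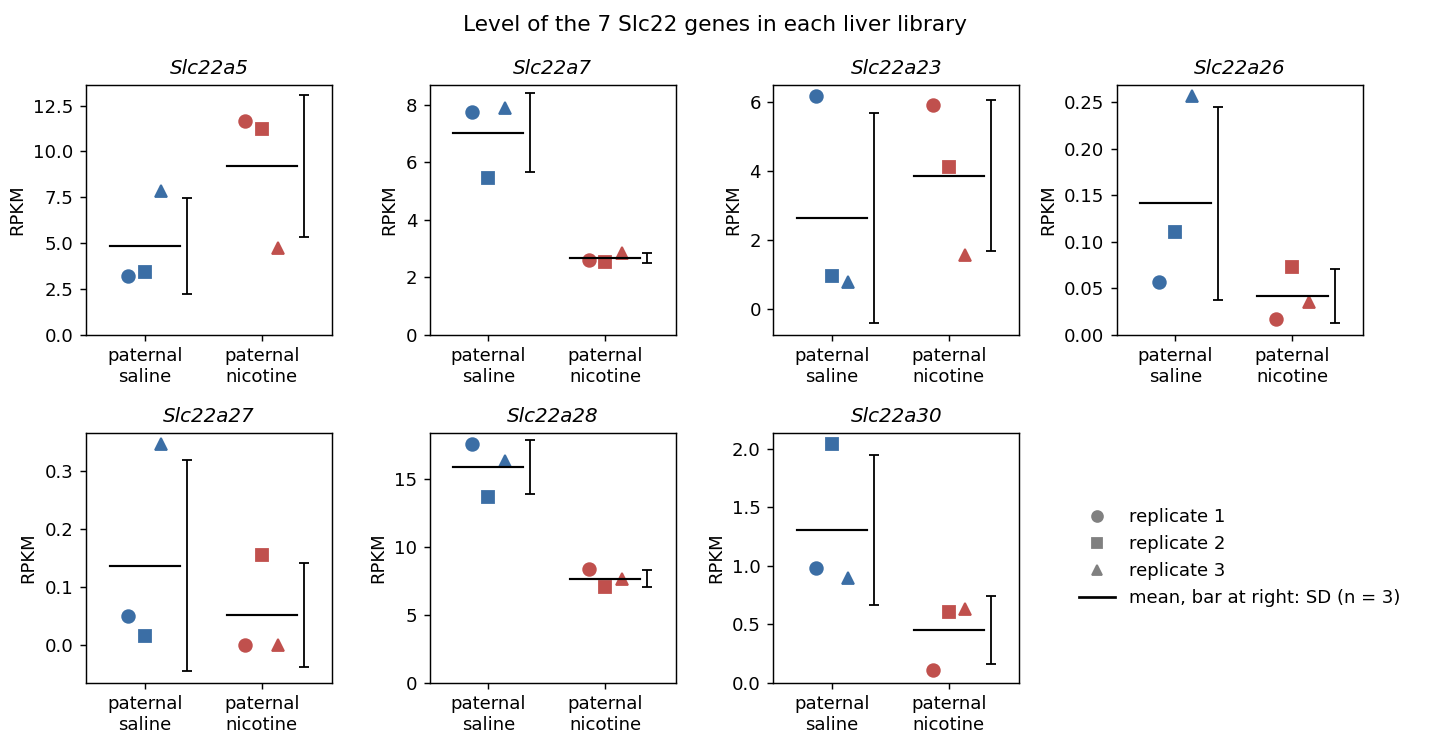
RPKM of the 7 Slc22 genes in each library, with the group mean as a line and the SD (n = 3) as a bar at its right. Slc22a7 and Slc22a28 sit below all paternal saline libraries in each paternal nicotine library, while the groups overlap for Slc22a5 and Slc22a23.

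Slc22a7, the OAT2 gene, was at 7.73, 5.47 and 7.90 RPKM in paternal saline replicates 1 to 3 and at 2.62, 2.55 and 2.86 RPKM in paternal nicotine replicates 1 to 3. Each paternal nicotine value was below the lowest paternal saline value, and the paternal nicotine libraries lay close together. The means were 7.03 ± 1.36 and 2.67 ± 0.163 RPKM (SD, n = 3 per group), 2.63-fold apart. On the log2(RPKM + 1) scale, which understates changes of low genes, Slc22a7 fell by 1.11 (SE 0.14, 95% interval -1.47 to -0.76, limma adjusted p = 0.0113). With voom on the reads, which uses no pseudocount of 1 RPKM, the log2 fold change was -1.37.

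Slc22a28, the most abundant of the cluster, measured 17.6, 13.7 and 16.3 RPKM with paternal saline, against 8.35, 7.06 and 7.61 RPKM with paternal nicotine. Here too the groups did not overlap, and the highest paternal nicotine value, in replicate 1, was well below the lowest paternal saline value, in replicate 2. The means were 15.9 ± 2.004 and 7.67 ± 0.647 RPKM (SD, n = 3 per group), 2.07-fold apart. The log2 fold change was -0.96 (SE 0.12, 95% interval -1.25 to -0.67, limma adjusted p = 0.0102). Groups that do not overlap were found for 33.6% of all genes tested, and for 19.2% they were also lower in paternal nicotine.

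Without paternal nicotine replicate 2, neither gene passed. The limma adjusted p was then 0.058 for Slc22a7 and 0.0531 for Slc22a28, in ranges over all alternatives of 0.00692 to 0.058 and 0.00587 to 0.0531. The log2 fold changes were then -1.09 and -0.90, close to those of all libraries.

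Slc22a30, whose coding sequence is nearly that of Slc22a28, measured 0.984, 2.04 and 0.894 RPKM with paternal saline, against 0.110, 0.605 and 0.633 RPKM with paternal nicotine. The groups did not overlap, with paternal saline replicate 2 highest and paternal nicotine replicate 1 lowest. Of all genes with a read, 9.86% had groups that did not overlap and were lower in paternal nicotine. The means were 1.31 ± 0.638 and 0.449 ± 0.294 RPKM (SD, n = 3 per group), from 46 to 921 reads per library. In the fit without a filter on low values, where 1.44% of 25531 genes passed, the log2 fold change was -0.66 (SE 0.25, limma adjusted p = 0.33). With other pseudocounts or on the reads the log2 fold change was larger, up to -1.79 in voom (adjusted p = 0.272, range over the alternatives 0.272 to 0.517). The reads of Slc22a28 and Slc22a30 together were 2594, 2757 and 2487 with paternal saline, against 1085, 1131 and 1368 with paternal nicotine. Scaled by the total reads of each library to RPM these were 40.6 ± 1.69 and 18.4 ± 1.04 (SD, n = 3 per group). The sum was 2.21-fold lower in paternal nicotine, and the groups did not overlap (two-sided exact permutation p = 0.1, the smallest that 3 against 3 libraries can give).

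Slc22a26 and Slc22a27 were near the limit of detection. Slc22a26 measured 0.0566, 0.111 and 0.256 RPKM with paternal saline, against 0.0166, 0.0729 and 0.0352 RPKM with paternal nicotine, from 5 to 80 reads per library. Slc22a27 measured 0.0491, 0.0151 and 0.347 RPKM with paternal saline, against 0, 0.155 and 0 RPKM with paternal nicotine, from 0 to 88 reads. For both genes the groups overlapped, paternal saline replicate 3 was highest, and paternal nicotine replicate 2 was the highest of its group. Slc22a29, which is nearly identical to Slc22a27, was highest in the same libraries, at 0.104 RPKM in paternal saline replicate 3 and 0.0263 RPKM in paternal nicotine replicate 2. A level of 0 for Slc22a27 allows up to 0.0122 RPKM in paternal nicotine replicate 1 and 0.0108 RPKM in replicate 3, the value of 3 reads, for counting error only. Slc22a28 and Slc22a30 did not share this pattern, since their highest libraries were paternal saline replicates 1 and 2. Without a filter, the log2 fold changes of Slc22a26 and Slc22a27 were -0.13 (SE 0.07) and -0.10 (SE 0.13), with limma adjusted p = 0.506 and 0.719. That of Slc22a27 changed sign to 0.02 without paternal saline replicate 3. At these levels the fold change depends on the pseudocount: with 0.01 in place of 1 RPKM it was -1.47 for Slc22a26 and -1.67 for Slc22a27, and in voom on the reads -1.70 and -3.05, and neither gene passed. The reads of Slc22a27 and Slc22a29 together were 16, 11 and 141 with paternal saline, against 2, 51 and 0 with paternal nicotine. These groups overlapped too (two-sided exact permutation p = 0.5 in RPM, smallest possible 0.1), and the sign of the difference changed without paternal saline replicate 3.

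The 4 described genes of the cluster summed to 17.5 ± 1.46 RPKM with paternal saline, against 8.21 ± 0.297 RPKM with paternal nicotine (SD, n = 3 per group). The groups did not overlap (two-sided exact permutation p = 0.1, the smallest possible). Slc22a28 made up most of both sums. Since RPKM divide by the length of each gene, this sum does depend on how reads were divided.

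**Figure D2:**
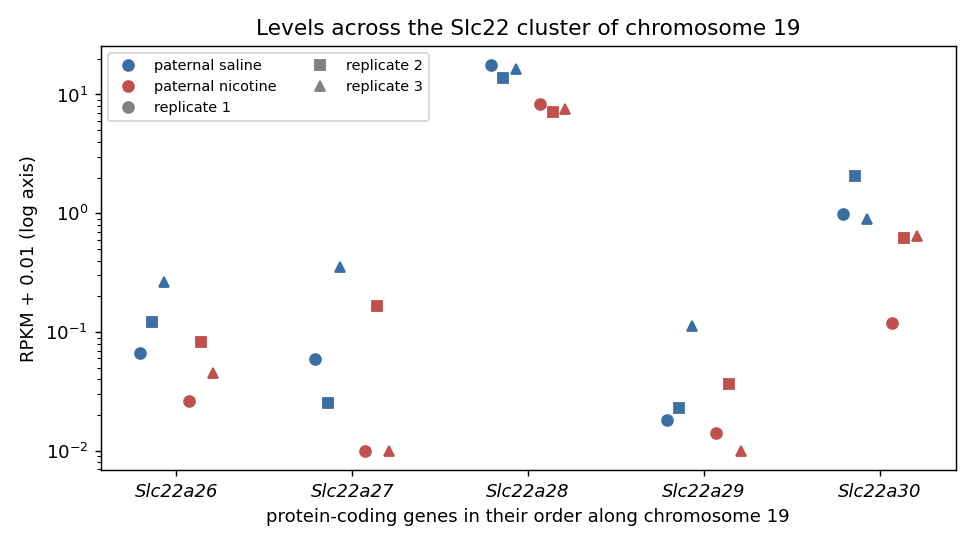
RPKM + 0.01 on a log axis for the 5 protein-coding genes of the chromosome 19 cluster, in their order along the chromosome, with 1 point per library. Slc22a28 stands above the rest in every library, and Slc22a26, Slc22a27 and Slc22a29 are each highest in paternal saline replicate 3.

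Slc22a5, the carnitine carrier gene, measured 3.19, 3.44 and 7.84 RPKM with paternal saline, against 11.7, 11.2 and 4.75 RPKM with paternal nicotine. Paternal saline replicate 3 was above paternal nicotine replicate 3, so the groups overlapped. Within each group the highest library was 2.46-fold above the lowest, in values that rest on 919 to 3381 reads. The log2 fold change was 0.81 (SE 0.42, 95% interval -0.23 to 1.86, limma adjusted p = 0.295). The summed reads of Slc22a5 and Slc22a21 were 23.5 ± 12.1 and 43.95 ± 18.2 RPM (SD, n = 3 per group; two-sided exact permutation p = 0.2, smallest possible 0.1).

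The neighbours of Slc22a5 had other patterns. Slc22a21, a mouse carnitine carrier gene (53949965 to 53980332), was at 0.179 ± 0.0186 and 0.176 ± 0.0429 RPKM (SD, n = 3 per group). Slc22a4, the gene of the ergothioneine carrier OCTN1 (53983123 to 54028090), measured 0.844, 0.703 and 0.857 RPKM with paternal saline, against 0.349, 0.413 and 0.411 RPKM with paternal nicotine. Its groups did not overlap and were 2.05-fold apart in the direction opposite to the means of Slc22a5. However, Slc22a4 was below the tested range and did not pass without a filter (log2 fold change -0.37, SE 0.07, limma adjusted p = 0.0762). Of all genes with a read, 9.86% likewise did not overlap and were lower in paternal nicotine.

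Slc22a23, the orphan carrier gene, measured 6.16, 0.947 and 0.795 RPKM with paternal saline, against 5.90, 4.11 and 1.56 RPKM with paternal nicotine. Replicate 1 was the highest of each group, and the other paternal saline libraries were below all paternal nicotine libraries. The highest paternal saline library was 7.74-fold above the lowest, from 702 to 5233 reads. The log2 fold change was 0.62 (SE 0.64, 95% interval -0.96 to 2.20, limma adjusted p = 0.59), and without paternal saline replicate 1 it was 1.26 and did not pass (adjusted p = 0.201, range over the alternatives 0.201 to 0.854). A spread within a group at least as wide as that of Slc22a23 on the log2(RPKM + 1) scale was found for 3.17% of the genes tested. For Slc22a5 the share was 9.62%, for Slc22a7 36.9% and for Slc22a28 53.6%.

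By the deposited RPKM, the order of mean levels in paternal saline was Slc22a28, Slc22a7, Slc22a5, Slc22a23, Slc22a30, Slc22a26 and Slc22a27. Slc22a28 did not overlap with Slc22a7. Slc22a7 overlapped with Slc22a5, Slc22a5 with Slc22a23, Slc22a23 with Slc22a30, and Slc22a26 with Slc22a27. In paternal nicotine the order was Slc22a5, Slc22a28, Slc22a23, Slc22a7, Slc22a30, Slc22a27 and Slc22a26. Slc22a28 overlapped with Slc22a5 there, Slc22a23 with Slc22a7, Slc22a30 with Slc22a27, and Slc22a27 with Slc22a26. Levels between genes depend on the length used: for these 7 genes the deposited RPKM divide by the summed length of all annotated transcripts. Per length of the merged exons, the paternal saline means were 15.9 RPKM for Slc22a28, 13.1 for Slc22a7, 7.32 for Slc22a5, 5.67 for Slc22a23 and 2.61 for Slc22a30. The paternal nicotine means on that scale were 13.98 RPKM for Slc22a5, 8.30 for Slc22a23, 7.67 for Slc22a28, 4.98 for Slc22a7 and 0.899 for Slc22a30.

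The 7 described genes made up 13.2% to 24.2% of the summed RPKM of the 25 Slc22 genes in a library. Of the 18 other family genes, 2 were tested, 1 fell and 0 rose, with the same counts at an unadjusted p under 0.05 and in voom. The gene that fell was Slc22a18, an imprinted orphan carrier gene, from 13.7 ± 0.641 to 10.1 ± 0.478 RPKM (SD, n = 3 per group; log2 fold change -0.40, SE 0.08, limma adjusted p = 0.036). The kidney anion carrier genes Slc22a6, Slc22a8 and Slc22a12 had means of 0.212 RPKM or less in both groups, and Slc22a16 and Slc22a20 had no read.

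**Figure D3:**
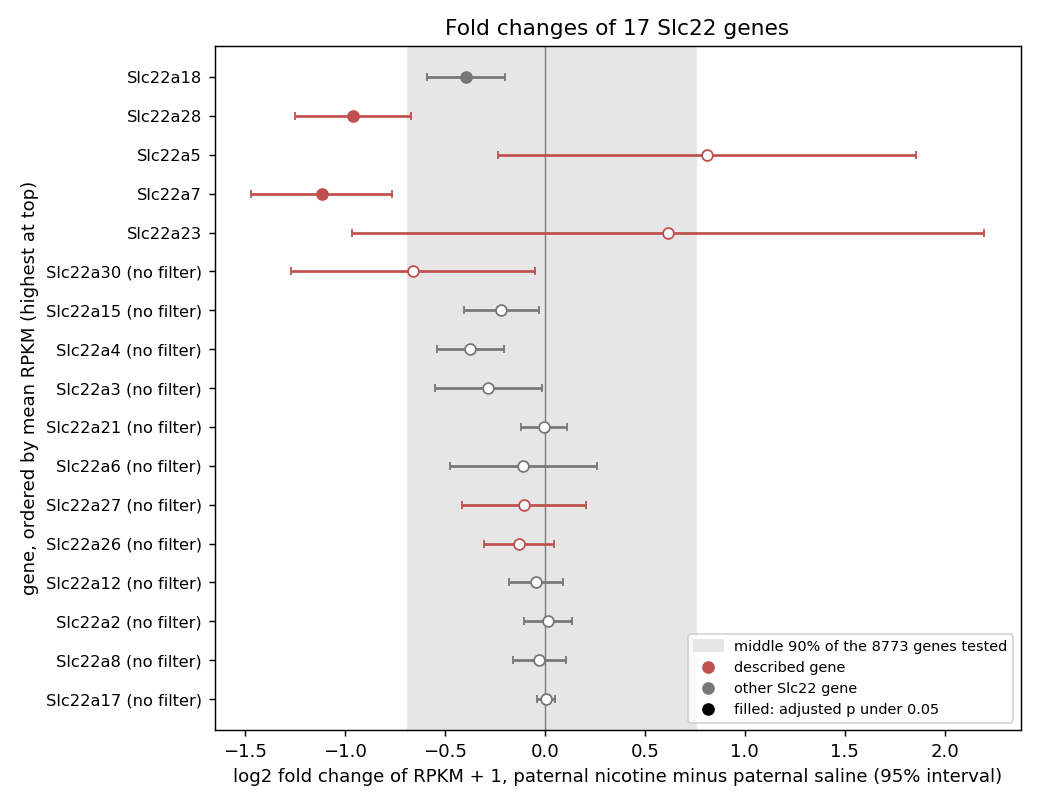
Log2 fold change of RPKM + 1 with its 95% interval for 17 Slc22 genes with means over 0.05 RPKM, ordered by mean level, over the range that holds the middle 90% of all 8773 genes tested. Slc22a7 and Slc22a28 lie below that range with narrow intervals, while the intervals of Slc22a5 and Slc22a23 span 0.

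The carnitine carrier works with the enzymes that make carnitine and with the shuttle that carries fatty acids into mitochondria. Of 13 genes of carnitine synthesis, shuttle and efflux 11 were tested, of which 2 fell, 0 rose and 9 did not pass. At an unadjusted p under 0.05, and in voom with adjustment, the counts were the same. The median log2 fold change was -0.13, against -0.02 over all genes tested. The genes that fell were Shmt1 and Shmt2, which encode serine hydroxymethyltransferases. Shmt1 was at 6.97 ± 1.10 and 4.02 ± 0.390 RPKM (SD, n = 3 per group; limma adjusted p = 0.0351) and Shmt2 at 13.3 ± 0.572 and 8.31 ± 1.42 RPKM (adjusted p = 0.0389). These enzymes are known mainly for one-carbon metabolism.

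Of 14 listed carriers of other families that handle organic ions, 12 were tested, with 5 falls, 1 rise and 6 genes that did not pass. Their median log2 fold change was -0.42. At an unadjusted p under 0.05 there were 7 lower and 3 higher, and in voom 5 lower and 1 higher. Slc47a1, the gene of the cation exporter MATE1, measured 10.5, 10.2 and 12.9 RPKM with paternal saline, against 3.53, 4.04 and 4.35 RPKM with paternal nicotine (log2 fold change -1.29, SE 0.12, limma adjusted p = 0.00607). Slc10a1, the gene of the bile acid carrier NTCP, was at 86.2 ± 9.49 and 41.8 ± 6.32 RPKM (SD, n = 3 per group; log2 fold change -1.03, SE 0.14, limma adjusted p = 0.0122). The other falls were of Slco1a1, Slco1a4 and Slco1b2, organic anion carriers, with log2 fold changes of -2.43, -2.05 and -4.49. The rise was of Slc13a3, which encodes a sodium-dependent dicarboxylate carrier, from 1.64 ± 0.223 to 4.69 ± 0.980 RPKM (SD, n = 3 per group; log2 fold change 1.10, SE 0.15, limma adjusted p = 0.0125). Slc13a5 and Slc47a2 were below the tested range. Slc13a5 had means of 0.0110 and 0.567 RPKM and passed without a filter (log2 fold change 0.63, SE 0.08, limma adjusted p = 0.0376), where 1.44% of 25531 genes passed. Slc47a2 had means of 0.0165 and 0 RPKM and did not pass (limma adjusted p = 0.499).

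Of 14 tested genes of transcription factors, hormone receptors and scaffolds known for Slc22 genes, 2 fell and none rose (0), while 12 did not pass. The median log2 fold change was -0.08. In voom the counts were 2 and 0, and at an unadjusted p under 0.05 they were 6 lower and 0 higher. Ghr, the growth hormone receptor gene, fell from 28.4 ± 4.48 to 16.6 ± 0.317 RPKM (SD, n = 3 per group; limma adjusted p = 0.0232). Nr1h4, the gene of the bile acid receptor FXR, fell from 16.0 ± 1.38 to 11.4 ± 0.869 RPKM (adjusted p = 0.0452). Hnf4a was at 60.0 ± 12.2 and 67.4 ± 7.69 RPKM, and Ppara, whose product is known to induce Slc22a5, at 5.72 ± 3.44 and 5.33 ± 2.23 RPKM. Cebpa, at 405 ± 34.8 and 307 ± 6.89 RPKM, was just above the threshold (limma adjusted p = 0.05002). Nr1i3 was at 9.83 ± 3.41 and 4.70 ± 1.12 RPKM (limma adjusted p = 0.0827). Of the 14 genes, 8 had negative and 6 positive log2 fold changes.

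**Figure D4:**
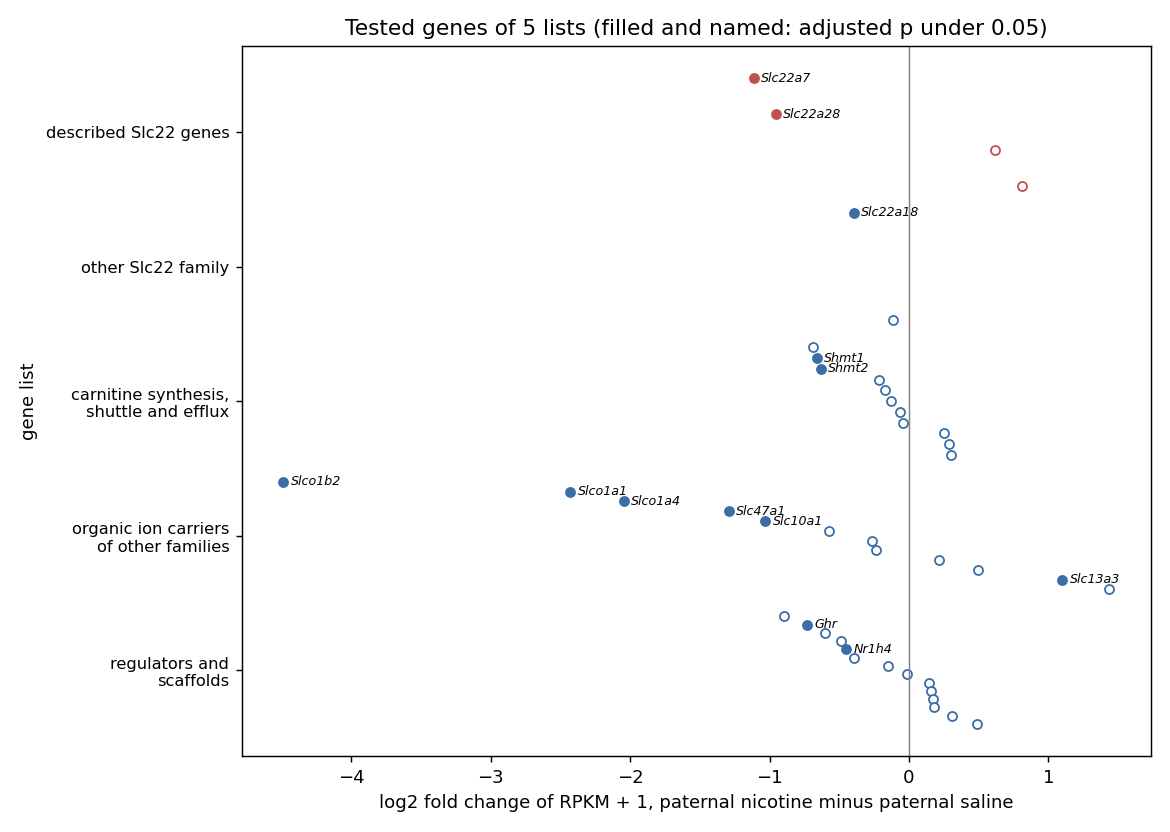
Log2 fold change of RPKM + 1 for each tested gene of the described Slc22 genes and of 4 related lists, with filled and named points for an adjusted p under 0.05. Of the 4 described genes tested, Slc22a7 and Slc22a28 lie near -1. Slc22a7 lies between Slc47a1 and Slc10a1, and Slc22a28 is nearer to 0 than both. Slco1a1, Slco1a4 and Slco1b2 fell further.

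The genes most like each carrier were those with the smallest root mean square difference of log2(RPKM + 1), each gene centred on its mean, over the 6 libraries. For Slc22a28 they were Spp2, a secreted liver phosphoprotein gene, at 0.04 and Agmo, an ether lipid enzyme gene, at 0.05. Spp2 measured 57.6, 46.7 and 57.5 RPKM with paternal saline, against 29.6, 26.9 and 27.0 RPKM with paternal nicotine. For Slc22a7 they were the antisense gene Gm16157, at 0.07, and the urea cycle gene Otc, at 0.08. For Slc22a5 they were Fermt2, an integrin adaptor gene, at 0.17 and Aqp9, a glycerol channel gene of hepatocytes, at 0.19. Aqp9 repeated the order of Slc22a5 in having paternal saline replicate 3, at 18.97 RPKM, above paternal nicotine replicate 3, at 12.5 RPKM. For Slc22a23 they were Dapk1 and Phlda1, at 0.31 and 0.38, so no gene matched it as closely.

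The libraries hold 61837267 to 70089315 reads behind the RPKM values. Liver identity was checked with 7 hepatocyte genes, all tested, of which 1 fell and 0 rose (3 and 0 at an unadjusted p under 0.05, 1 and 0 in voom). Their summed level was 25576 to 32779 RPKM with paternal saline, against 14622 to 15570 RPKM with paternal nicotine, carried by the albumin gene Alb, which fell (log2 fold change -0.998, limma adjusted p = 0.0161). Of 6 kidney tubule genes 3 had means under 0.1 RPKM and none was at 0 in all libraries, and the list summed to 5.74 to 20.0 and 5.24 to 18.9 RPKM. Kap carried the sum and was highest in paternal saline replicate 1 (18.6 RPKM) and paternal nicotine replicate 3 (17.5 RPKM). Slc34a1, Lrp2, Cubn and Umod were highest of their groups in the same libraries, while Slc5a2 was highest of paternal saline in replicate 2. The cause was not tested. The 12 neutrophil genes summed to 6.02 to 7.19 RPKM with paternal saline, against 26.8 to 86.8 RPKM with paternal nicotine. Only 3 of them were tested, of which 1, S100a8, rose and 0 fell. Not all moved: the paternal saline and paternal nicotine means were 0.0133 and 0.0110 RPKM for Mpo, and 0.0215 and 0.0258 RPKM for Ltf. Of 8 acute phase genes 7 rose. Of the 4 cholangiocyte genes tested 2 rose. The part of these shifts in the falls of Slc22a7 and Slc22a28 was not tested. Macrophage genes summed to 438 to 861 and 435 to 1376 RPKM, endothelial genes to 47.7 to 60.6 and 51.6 to 58.3 RPKM, stellate cell genes to 8.39 to 11.2 and 8.14 to 12.3 RPKM, cholangiocyte genes to 8.68 to 11.4 and 20.1 to 21.0 RPKM, T and NK cell genes to 2.22 to 2.48 and 1.502 to 10.6 RPKM, and erythroid genes to 454 to 1272 and 415 to 1097 RPKM.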

How the data were processed

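Liver RNA of 3 offspring per group was sequenced from total RNA extracted with Trizol. Groups come from the labels. The authors deposited RPKM values for 54532 Ensembl genes per library. CASAVA, TopHat and the build mm8 are named in the submitters' processing notes, without versions, and the counting tool and strandedness are not stated there (not given in the sources used here). Gene identifiers (99.93%) were matched to GENCODE M21 on GRCm38, which gave symbols and coordinates. Values under 1e-06 RPKM, the placeholder of genes without a read, were set to 0. The placeholders gave the total reads per library, 61837267 to 70089315, and with them 24510 of 25531 genes with a read came out as whole reads within 0.01. For the other 1021, none of the 7 genes among them, the length was searched so that reads came out whole, which tests nothing. Floors of 3 reads cover counting error only.

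The test was limma 3.58.1 (R 4.3.3; trend and robust) on log2(RPKM + 1) for 8773 genes that averaged 1 RPKM or more over the 6 libraries. P-values were adjusted over all of these by Benjamini and Hochberg, with a threshold of 0.05. The code was tested on simulated data. Genes below that mean are given from the same fit without the filter. The design assumed normalized values, as the files hold. The 7 genes, the lists, the motifs and the rule for named genes were chosen with earlier results of these data known. The rule takes the 7 genes, up to 6 genes per list that passed, and the protein-coding genes between the cluster members. It also takes the 2 genes of most similar pattern per tested gene. Slc22a4, Slc22a21, Hnf4a, Ppara, Cebpa, Nr1i3, the kidney carriers and the single neutrophil and kidney tubule genes were added after their values were seen. So were Slc13a5 and Slc47a2. Copies were searched as alignments of 200 bases or more with 95% identity (blastn 2.17.0), coding sequences and promoters were aligned with Biopython 1.88, and figures drawn with matplotlib 3.10.9. Alternatives were other scalings, models, filters, pseudocounts and thresholds, a replicate block, leaving out each library, and voom on the reads. Some items are not reported here.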

Additional observations from a re-analysis of the deposited data

How the results depend on the processing

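The falls of Slc22a7 and Slc22a28 kept their direction in 14 and 15 alternatives and passed at 0.05 in all of them but 1, the fit without paternal nicotine replicate 2 (log2 fold changes -1.09 and -0.90). Leaving out each library gave -1.26 to -1.03 and -1.05 to -0.88. Slc22a5 and Slc22a23 passed in none, with log2 fold changes of 0.61 to 1.18 and 0.26 to 1.26. Counts of called genes moved more: in place of 814 genes, 367 were called without a filter (25531 tested), 1411 at an adjusted p of 0.1, 156 at 0.01, and 182 to 658 when each library was left out. The lowest of these was without paternal nicotine replicate 2, and 254 were called without paternal saline replicate 1, 274 without paternal nicotine replicate 1 and 366 without paternal saline replicate 3. Of the 7 genes, the number called lower was 1 with the filter at 5 RPKM, where Slc22a7 was not tested, 0 at an adjusted p of 0.01 in limma (2 at an unadjusted p under 0.05), and 0 to 2 when each library was left out. Without a filter, where all 7 genes were in the fit, 3 were lower at an unadjusted p under 0.05, namely Slc22a7, Slc22a28 and Slc22a30. The number called higher was 0 in every alternative. At an unadjusted p under 0.05 it was 1 without paternal saline replicate 1, where the gene was Slc22a23. It was also 1 without paternal saline replicate 3 and without paternal nicotine replicate 3, where the gene was Slc22a5. Without a filter, the log2 fold change of Slc22a27 ranged from -0.18 to 0.02 when each library was left out, and reversed to 0.0238 without paternal saline replicate 3, as did the difference in summed reads of Slc22a27 and Slc22a29 (-0.942 to 0.0731 RPM). Over all alternatives the lowest log2 fold changes were -3.05 for Slc22a27, -1.70 for Slc22a26 and -1.79 for Slc22a30, all in voom. The sum of the 4 cluster genes differed by -10.0 to -8.62 RPKM when each library was left out. The cause of these changes was not tested.

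With the replicate number as a block, 383 genes were called, and Slc22a7 and Slc22a28 still passed, at limma adjusted p = 0.0326 and 0.028. Samples with the same number correlated in their deviations from the group means by 0.007, 0.056 and 0.049, so the numbers were not taken as pairs, and not every sample correlated best with its own number. Depth limits Slc22a26 and Slc22a27, with 0 to 88 reads per library. How reads that match several genes were counted is unknown here, so the split between Slc22a28 and Slc22a30 is uncertain. If such reads were dropped or counted for both genes, their sum is affected too.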
